A study of Mus musculus with 8 samples.

Results

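The genes described here are 9 genes of cholesterol synthesis and its control in mouse liver: Hmgcs1, Idi1, Fdps, Fdft1, Sqle, Cyp51, Dhcr7, Srebf2 and Insig1. They were followed through all probe sets whose gene symbol in the platform annotation is one of these names. A probe set is the group of short oligonucleotides by which an Affymetrix array reads 1 transcript. The annotation named 19 probe sets for 8 of the 9 genes, among 12394 genes named in the series, and Insig1 is not analysed here. Of the 19 probe sets, 14 were bright enough to be tested. The other 5 (Fdps 1438150_at, Fdft1 1438918_at and 1438919_x_at, Cyp51 1422534_at and Srebf2 1426744_at) read between 3.21 and 7.69 on all arrays and were not tested, although each of these genes kept at least 1 tested probe set.

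The study measured RNA of 8 livers, 1 array per mouse, and asked how the oxysterol receptor LXRα in liver acts on lipid metabolism. All mice lacked the LDL receptor on a C57B6 background, were 8 months old and had been fed a Western diet over 12 weeks. At an age of 10 weeks each had received an adeno-associated virus (AAV2.8) that carried a transgene behind the human thyroxine binding globulin promoter, which the labels call liver-specific. The LXRα T0901317 group carried human LXRα and received the synthetic LXR agonist T0901317 intraperitoneally at 5 mg/kg for 3 days, and the LXRα vehicle group carried human LXRα and received vehicle for 3 days. The GFP T0901317 and GFP vehicle groups carried green fluorescent protein in place of the receptor and received the same injections. Each group held 2 mice, so the spread within a group rests on a single pair of livers. The transgene is a human protein in mice whose own LXR genes are not said to be altered, and T0901317 was given to the whole animal.

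Cholesterol is built from acetyl-CoA through mevalonate, isoprenoid units, farnesyl diphosphate, squalene and lanosterol. The membrane-bound transcription factor SREBP2, encoded by Srebf2, activates the genes of nearly every step. When sterols are plentiful, INSIG proteins hold SREBP2 and its escort SCAP in the endoplasmic reticulum, and when sterols run short the complex moves to the Golgi, where proteases release the active factor. LXR, in contrast, is activated by oxysterols and drives sterol efflux, bile acid synthesis and, through Srebf1, fatty acid synthesis.

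SREBP2 binds sterol regulatory elements in promoters, usually beside sites of the general factors NF-Y, which binds CCAAT boxes, and Sp1. The 150 bases upstream of the annotated start are shown for Idi1, Cyp51 and Dhcr7, 3 of the genes with the largest T0901317 differences below, and for Hmgcs1, the 1 gene whose window held a match to the element TCACNCCAC. Sequences run 5′ to 3′ in the gene's direction, from RefSeq on build GRCm38.p6, and capitals mark CCAAT boxes on either strand (ATTGG on the opposite one) and, in Hmgcs1, the element. Idi1 lies at chr13:8885456-8885605 (plus strand), Cyp51 at chr5:4104698-4104847 (minus strand), Dhcr7 at chr7:143830064-143830213 (plus strand) and Hmgcs1 at chr13:119690201-119690350 (plus strand). For Dhcr7, 3 starts are listed. The window of 1 that is not the outermost is printed, and it was chosen because it holds a CCAAT box. The promoters at the other Dhcr7 starts held no CCAAT box.
Idi1: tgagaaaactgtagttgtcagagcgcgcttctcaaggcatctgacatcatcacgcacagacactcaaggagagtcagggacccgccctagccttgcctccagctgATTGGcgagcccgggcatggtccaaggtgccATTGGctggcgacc
Cyp51: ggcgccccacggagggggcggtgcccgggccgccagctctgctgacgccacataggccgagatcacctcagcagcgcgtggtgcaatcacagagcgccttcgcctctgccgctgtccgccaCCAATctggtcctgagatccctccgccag
Dhcr7: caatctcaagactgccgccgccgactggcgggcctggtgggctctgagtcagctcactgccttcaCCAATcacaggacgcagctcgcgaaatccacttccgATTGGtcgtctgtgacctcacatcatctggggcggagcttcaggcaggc
Hmgcs1: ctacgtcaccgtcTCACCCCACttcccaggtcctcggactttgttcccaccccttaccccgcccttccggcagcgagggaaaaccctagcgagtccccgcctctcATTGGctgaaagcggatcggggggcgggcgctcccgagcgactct
The promoter table, which spans 250 bases before to 50 after a start, held 8 promoters of 6 of the 9 genes (Hmgcs1, Idi1, Cyp51, Dhcr7, Insig1 and Srebf2). Motifs were searched on both strands. The CCAAT box occurred in 6 of these 8 promoters and in all 6 genes, against 37.4% of all 32851 promoters. The Sp1 box GGGCGG occurred in 7 of 8, against 35.7% of all promoters. The element TCACNCCAC occurred in 1 of 8, Hmgcs1, where it begins 137 bases before the start, against 1.24% of all promoters. Neither the E-box form TCACNTGA (4.18% of all promoters) nor the LXR site, AGGTCA repeated after 4 free bases (0.0152% of all promoters) was found in the 8 windows. These matches describe letters in a window and say nothing of binding.

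The 8 arrays had similar medians, between 21.1 and 23.3 intensity units. Hepatocyte markers (8 of 10 listed genes had a tested probe set) summed to between 109604 and 138054 on every array, as fits the labelled tissue. The treated arrays stood apart in RNA quality. The ratio of the 3′ to the 5′ probe set of β-actin, which grows as RNA is degraded, was 2.75 and 36.3 under T0901317 and 2.61 and 3.08 under vehicle with the LXRα transgene, and 7.56 and 11.0 under T0901317 and 2.21 and 2.08 under vehicle with GFP. The lowest treated β-actin ratio lay inside the range of the vehicle arrays and the other 3 lay above it. The same ratio for Gapdh was 1.27 and 19.7 under T0901317 and 1.16 and 1.14 under vehicle with the LXRα transgene. With GFP it was 2.92 and 5.12 under T0901317 and 1.06 and 1.07 under vehicle. Every T0901317 array thus lay above every vehicle array for Gapdh. An 18S ribosomal RNA control probe set also separated them, at 11.8 to 45.3 under T0901317 and 245 to 638 under vehicle.

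Across both transgenes, 7 of the 8 measured genes read higher on average in T0901317 livers than in vehicle livers, and none of them passed the test across the array. Sqle, Idi1, Dhcr7 and Cyp51 had the largest differences with intervals above 0, between 1.66-fold and 2.15-fold. Hmgcs1 and Fdft1 differed less, Fdps varied so widely between livers that the interval of its difference spans 0, and Srebf2 stayed between 26.2 and 34.1 intensity units on all arrays. The median difference of the 8 genes, each by its brightest probe set, was 0.74 on the log2 scale, against -0.04 over all tested probe sets. The 8 genes were chosen with earlier results of these data known. Their contrasts with all tested probe sets, here and below, are therefore descriptive and no test of the set. Differences were tested with limma on log2 intensities, with Benjamini-Hochberg adjustment over all 15838 tested probe sets, and an adjusted p under 0.05 was called. Of the 14 probe sets, 12 differed in the positive direction, against 45.7% of all tested probe sets. None of the 14 was called, while 0.568% of all tested probe sets were. At an unadjusted p under 0.05, 5 of 14 were higher (both Idi1 probe sets, Sqle, Dhcr7 and Cyp51 1450646_at), against 12.7% of all tested probe sets, and 0 were lower, against 10.5%. The count of 5 was 1 with the β-actin ratio described above as a covariate and 3 after quantile normalization. It was 8 without GFP T0901317 replicate 1, 2 without GFP T0901317 replicate 2 or GFP vehicle replicate 1, and 3 without LXRα T0901317 replicate 1 or LXRα vehicle replicate 2.

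The mevalonate arm comes first. Hmgcs1 (chr13:119690351-119708260, GRCm38.p6) encodes the cytosolic HMG-CoA synthase, an early enzyme on the way to mevalonate. Its brightest probe set without shared probes, 1433444_at, read 1770.2 and 1792 under T0901317 and 1355 and 1053 under vehicle with the LXRα transgene, and 1586 and 3628 under T0901317 and 2243 and 1889.6 under vehicle with GFP. The highest liver was GFP T0901317 replicate 2 and the lowest was LXRα vehicle replicate 2; T0901317 and vehicle livers separated within the LXRα transgene and overlapped within GFP. The T0901317 difference averaged over both transgenes was 0.40 on the log2 scale, with a limma adjusted p of 0.374. The probe sets 1433443_a_at and 1433445_x_at gave 0.32 and 0.41. The fourth, 1433446_at, gave -0.40. It read 470.2 and 181 under T0901317 and 420.2 and 267 under vehicle with the LXRα transgene, and 268 and 652 under T0901317 and 648 and 625 under vehicle with GFP. Its correlation with the other 3 over the 8 arrays lay between 0.383 and 0.586, while those 3 correlated with each other between 0.89 and 0.962. The Hmgcs1 probe sets thus differ in the sign of the T0901317 difference.

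Idi1 (chr13:8885606-8892396) encodes isopentenyl diphosphate isomerase, which makes the starter unit of isoprenoid chains. Probe set 1451122_at read 553 and 411 under T0901317 and 201 and 215 under vehicle with the LXRα transgene, and 268 and 800.1 under T0901317 and 204 and 294 under vehicle with GFP. Both LXRα T0901317 livers lay above all 4 vehicle livers, whereas the lower GFP T0901317 liver lay between the GFP vehicle livers. The averaged difference was 1.06 (SE 0.36, 95% interval 0.22 to 1.90), a 2.08-fold ratio, with a limma p of 0.0208 and an adjusted p of 0.164. The other probe set, 1423804_a_at, read 204 and 254 under T0901317 and 85.4 and 101 under vehicle with the LXRα transgene, and 131 and 339.8 under T0901317 and 79.5 and 181 under vehicle with GFP. It gave the same size of difference, 1.06, with an adjusted p of 0.178, and the probe sets correlated at r = 0.932 over the 8 arrays.

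Fdps (chr3:89093588-89101967) encodes farnesyl diphosphate synthase, whose product feeds both sterols and protein prenylation. Its tested probe set 1423418_at read 1071 and 300.1 under T0901317 and 1416 and 48.0 under vehicle with the LXRα transgene, and 595 and 1425 under T0901317 and 318 and 1548 under vehicle with GFP. Every group held 1 liver at least 2-fold above the other, so the groups overlapped throughout. The highest and lowest livers differed 32.2-fold. The standard deviation within groups was 2.06 on the log2 scale, at percentile 99.8 of all tested probe sets, whose median was 0.241. The averaged T0901317 difference of 0.76 had a 95% interval of -1.89 to 3.40.

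In the arm from farnesyl diphosphate to sterols, Fdft1 (chr14:63145150-63181687) encodes squalene synthase, the first committed enzyme. Probe set 1448130_at read 221 and 252 under T0901317 and 216 and 189 under vehicle with the LXRα transgene, and 216 and 260.2 under T0901317 and 159 and 248 under vehicle with GFP. T0901317 and vehicle livers separated by a narrow gap within the LXRα transgene and overlapped within GFP. The averaged difference was 0.24 (95% interval -0.23 to 0.71), with an adjusted p of 0.451. The probe set 1438322_x_at gave 0.40, and its suffix marks oligonucleotides that can match other transcripts.

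Sqle (chr15:59315092-59331193) encodes squalene epoxidase, a rate-limiting oxygenation of the sterol arm. Its single probe set 1415993_at read 124 and 48.9 under T0901317 and 32.2 and 33.2 under vehicle with the LXRα transgene, and 55.3 and 69.2 under T0901317 and 26.7 and 37.9 under vehicle with GFP. All 4 T0901317 livers lay above all 4 vehicle livers, and LXRα T0901317 replicate 1 was the highest by a wide margin. Group means were 6.28 ± 0.95 for LXRα T0901317, 5.03 ± 0.03 for LXRα vehicle, 5.95 ± 0.23 for GFP T0901317 and 4.99 ± 0.36 for GFP vehicle on the log2 scale (SD, n = 2 each). The averaged difference was 1.11 (SE 0.30, 95% interval 0.39 to 1.82), a 2.15-fold ratio, with a limma p of 0.00815 and an adjusted p of 0.116.

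Cyp51 (chr5:4080674-4104697) encodes lanosterol 14α-demethylase, the first step after lanosterol. Probe set 1450646_at read 246 and 194 under T0901317 and 132 and 109 under vehicle with the LXRα transgene, and 125 and 254 under T0901317 and 101 and 138 under vehicle with GFP. T0901317 and vehicle livers separated within the LXRα transgene, and the lower GFP T0901317 liver lay between the GFP vehicle livers. The averaged difference was 0.73 (SE 0.26, 95% interval 0.11 to 1.36), a 1.66-fold ratio, with a limma p of 0.0276 and an adjusted p of 0.179. The other tested probe set, 1422533_at, gave 0.21 with an adjusted p of 0.686. It read 61.6 and 50.3 under T0901317 and 55.1 and 46.1 under vehicle with the LXRα transgene, and 33.9 and 95.1 under T0901317 and 43.9 and 50.4 under vehicle with GFP. The probe sets correlated at r = 0.759 over the 8 arrays.

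Dhcr7 (chr7:143823167-143848410) encodes 7-dehydrocholesterol reductase, the last enzyme of 1 branch of the path. Its probe set 1448619_at read 224 and 352 under T0901317 and 169 and 143 under vehicle with the LXRα transgene, and 244 and 413 under T0901317 and 191 and 203 under vehicle with GFP. As with Sqle, all 4 T0901317 livers lay above all 4 vehicle livers. Sqle and Dhcr7 were 2 of 14 probe sets with this separation, against 8.21% of all tested probe sets, and 0 had the opposite one, against 8.44%. Group means were 8.13 ± 0.46 for LXRα T0901317, 7.28 ± 0.17 for LXRα vehicle, 8.31 ± 0.54 for GFP T0901317 and 7.62 ± 0.06 for GFP vehicle on the log2 scale (SD, n = 2 each). The averaged difference was 0.77 (SE 0.24, 95% interval 0.20 to 1.34), a 1.71-fold ratio, with a limma p of 0.0151 and an adjusted p of 0.146.

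Srebf2 (chr15:82147269-82205379), the regulator, differed from the enzymes in its flat profile. Probe set 1452174_at read 27.8 and 27.9 under T0901317 and 30.6 and 31.0 under vehicle with the LXRα transgene, and 29.4 and 30.6 under T0901317 and 26.2 and 34.1 under vehicle with GFP. Both GFP vehicle livers, the extremes of the 8, enclosed all others. The averaged T0901317 difference was -0.07 (SE 0.12), with a 95% interval of -0.36 to 0.22. The array measures transcript and not the cleaved protein.

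**Figure D1:**
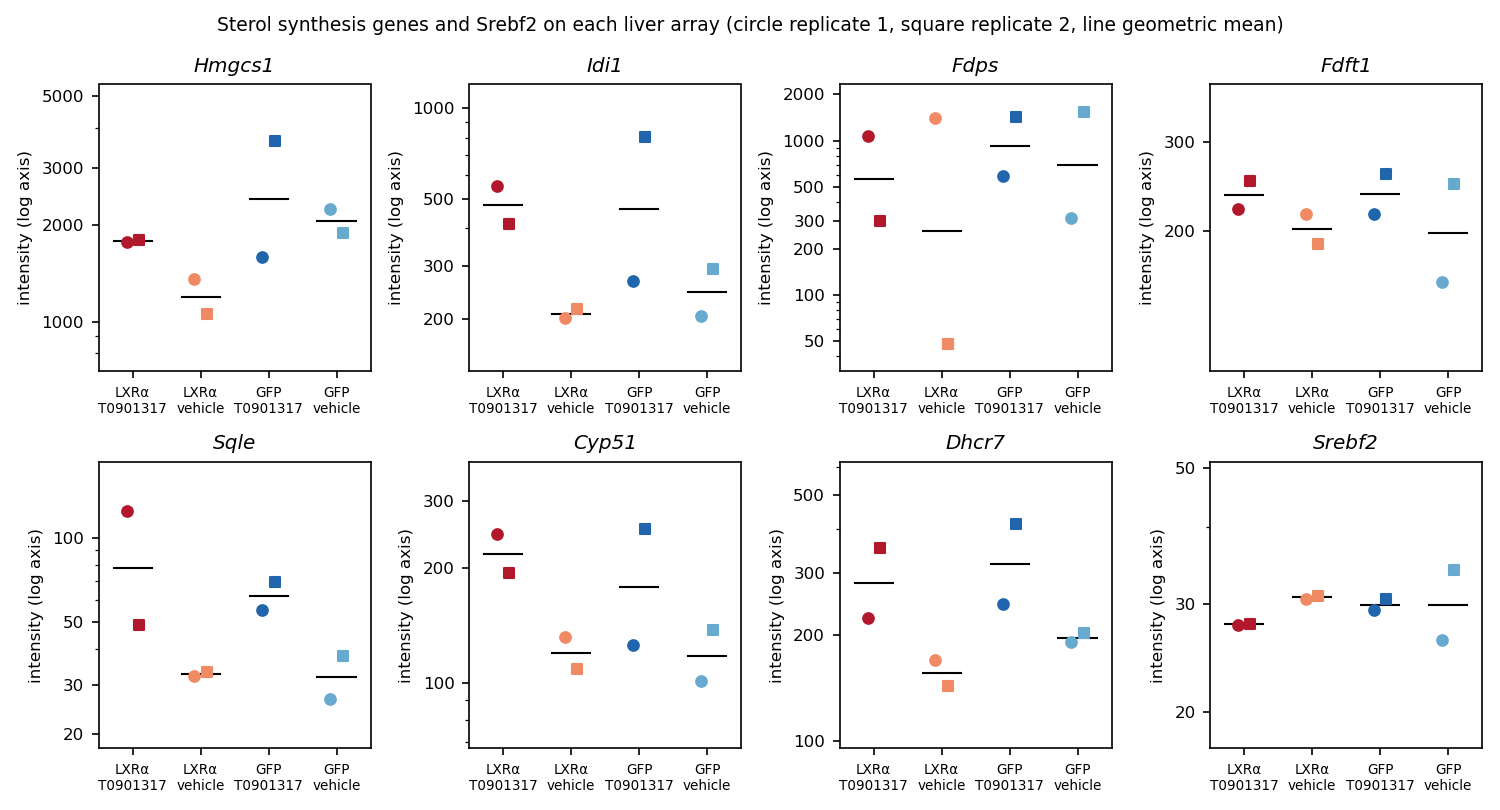
Intensity (log axis) of 8 genes, each by its brightest tested probe set without shared probes, in LXRα T0901317, LXRα vehicle, GFP T0901317 and GFP vehicle livers; circles are replicate 1, squares replicate 2 and lines geometric means. In the Sqle and Dhcr7 panels all 4 T0901317 livers lie above all 4 vehicle livers, the Fdps points spread over 32.2-fold, and the Srebf2 points stay between 26.2 and 34.1.

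RNA quality also differed with treatment. The 3′ to 5′ ratio of β-actin was added to the fit as a covariate. The averaged T0901317 difference was then 1.77 for Sqle (limma adjusted p 0.114), 1.16 for Idi1, 0.85 for Cyp51 and 0.39 for Dhcr7 (adjusted p 0.431). That fit kept a mean for each group, so the covariate drew only on differences between livers of a group. It therefore rested mainly on the LXRα T0901317 pair, with ratios of 2.75 and 36.3. With the 3 arrays of high β-actin ratio left out, a single LXRα T0901317 liver remained against the LXRα vehicle livers. The Gapdh ratio of that liver, 1.27, still lay above those of all vehicle arrays. The differences, which rest on that liver, were 1.92 for Sqle, 1.41 for Idi1, 1.04 for Cyp51 and 0.52 for Dhcr7. Marker genes of other liver cells were read on the same arrays. With T0901317 averaged over both transgenes, 7 of 8 tested stellate cell and matrix markers read higher (median 0.82, 0 called). So did 7 of 8 endothelial markers (median 0.42, 1 called) and 8 of 12 macrophage markers (median 0.13, 0 called). In contrast, 4 of 5 tested lymphocyte markers read lower (median -0.19, 0 called). At an unadjusted limma p under 0.05, 4 stellate cell and matrix, 4 endothelial and 0 macrophage markers were higher, against 12.7% of all tested probe sets. None of these lists held a marker that was lower at that threshold, and of the lymphocyte markers 1 was higher and 1 lower. The macrophage markers ran opposite ways within the transgenes: 10 of 12 read higher with T0901317 in LXRα livers (median 0.83) and 9 of 12 lower in GFP livers (median -0.51), with an interaction median of 1.09, 3 at an unadjusted p under 0.05 and 0 called. Stellate cell and matrix markers (9 of 9 present) summed to 2731 to 3312 under T0901317 and 892 to 1071 under vehicle with the LXRα transgene, and 2139.7 to 3173 under T0901317 and 1779.6 to 2997 under vehicle with GFP. Endothelial markers (8 of 8 present) summed to 907 to 926 under T0901317 and 397 to 548 under vehicle with the LXRα transgene, and 730.4 to 1019.7 under T0901317 and 615 to 629 under vehicle with GFP. Lymphocyte markers (7 of 8 present), of which 1 tested gene was 1.66 higher (log2) with T0901317 in LXRα livers and the other 4 tested were lower, summed to 307 to 310.0 under T0901317 and 149 to 221 under vehicle with the LXRα transgene, and 260.3 to 482 under T0901317 and 267 to 287 under vehicle with GFP. Of the cholangiocyte markers, 4 of 5 had a probe set and 3 of these averaged under 16 intensity units, and the lymphocyte markers likewise held 3 that averaged under 16. No marker of any list sat at the floor on all arrays. In bulk tissue, fewer cells of a type and less RNA per cell cannot be told apart, and the part of these markers in the gene differences was not tested.

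Within single transgenes, T0901317 livers lay fully above vehicle livers for 7 probe sets in LXRα livers and 2 in GFP livers, and none was called in either. In LXRα T0901317 livers 12 of 14 probe sets read above LXRα vehicle livers on average, against 44.4% of all tested probe sets. Of these, 7 did not overlap between groups (both Idi1 probe sets, Sqle, Dhcr7, Cyp51 1450646_at, Hmgcs1 1433444_at and Fdft1 1448130_at), against 20% of all. Srebf2 was the 1 probe set that did not overlap and was lower, with a difference of -0.14, against 28.5% of all. None of 14 had a limma adjusted p under 0.05, against 0.0253% of all, and 4 had an unadjusted p under 0.05 and were higher, against 7.88%. The count of 4 was 0 without LXRα vehicle replicate 2, 1 without any other single LXRα array and 2 without either GFP vehicle array. The differences in LXRα livers were 1.25 for Sqle (SE 0.43, adjusted p 0.311), 1.20 and 1.30 for the Idi1 probe sets, 0.87 for Cyp51 (SE 0.37, adjusted p 0.38) and 0.85 for Dhcr7 (SE 0.34, adjusted p 0.362). They rest on single livers: Sqle was 0.58 and Dhcr7 1.18 without LXRα T0901317 replicate 1, and Sqle was 1.92 and Dhcr7 0.52 without LXRα T0901317 replicate 2. With the β-actin covariate, which rested mainly on this same pair of livers, Dhcr7 was 0.49 and Sqle 1.87. The median of the 8 genes was 0.86, against -0.05 over all tested probe sets.

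The T0901317 differences in GFP livers were 0.96 for Sqle (adjusted p 0.402), 0.92 and 0.81 for Idi1, 0.69 for Dhcr7 (adjusted p 0.439), 0.60 for Cyp51, 0.39 for Fdps, 0.26 for Fdft1 and 0.22 for Hmgcs1. Srebf2 had a difference of 0.00. Without GFP T0901317 replicate 2 the differences were 0.13 for Idi1 1451122_at, 0.0908 for Cyp51 and 0.31 for Dhcr7, and without GFP T0901317 replicate 1 they were 1.71, 1.11 and 1.07 for the same probe sets. Without GFP vehicle replicate 1 Cyp51 was 0.37. With the β-actin covariate, which rested mainly on the LXRα T0901317 pair, Sqle was 1.67 and Dhcr7 0.28. In GFP livers both T0901317 ratios lay above both vehicle ratios, so ratio and treatment cannot be told apart there. Of 14 probe sets, 13 were above 0, against 45% of all, and 2 (Sqle and Dhcr7) did not overlap and were higher, against 23.2% of all. None was lower without overlap, against 35.2% of all. None was called by limma, where 0% of all tested probe sets were called, and none had an unadjusted p under 0.05, against 13.2% of all. The median of the 8 genes was 0.50, against -0.05 over all. The difference between the 2 T0901317 effects was itself tested as an interaction. It lay between -0.15 and 0.73 for the 8 genes, with 0 called (0.00631% of all) and 0 at an unadjusted p under 0.05 (4.77% of all). For Sqle it was 0.29 (SE 0.60), so an effect of T0901317 that differs with the transgene was not shown for any gene.

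**Figure D2:**
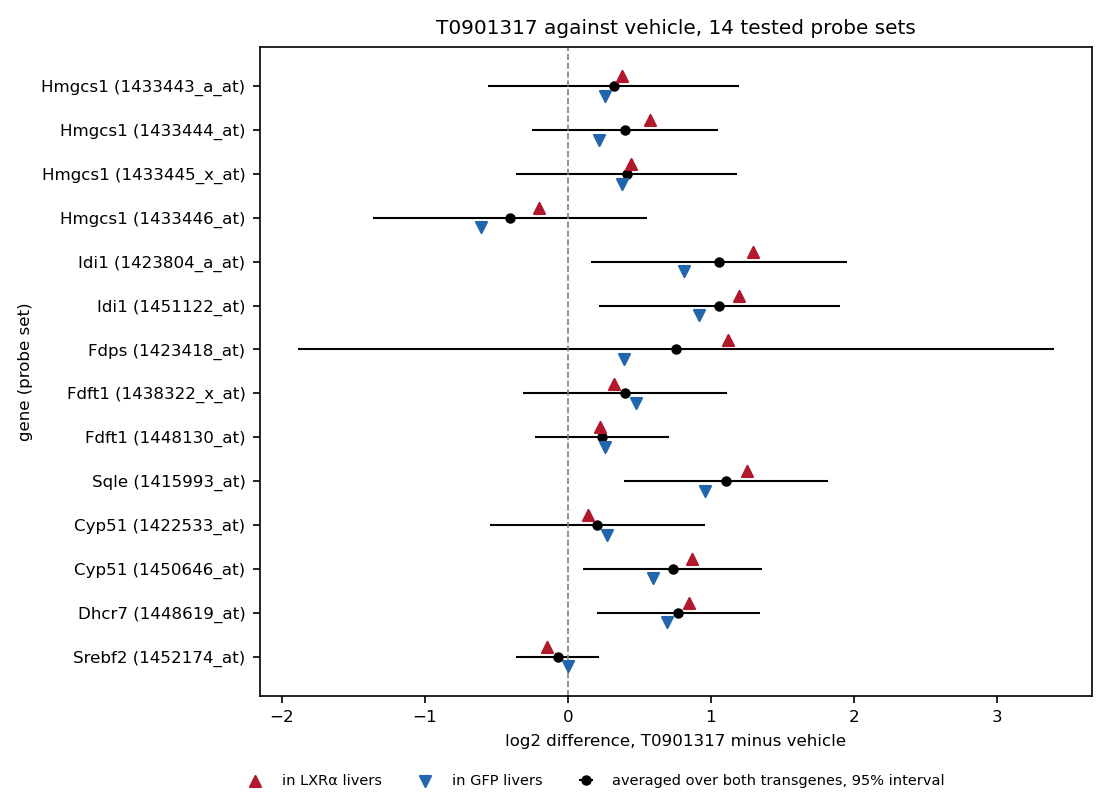
Log2 difference between T0901317 and vehicle livers for each tested probe set; black points with bars are the difference averaged over both transgenes with its 95% interval, and triangles are the differences within LXRα livers (pointing up) and GFP livers (pointing down). The intervals of Sqle, both Idi1 probe sets, Dhcr7 and Cyp51 1450646_at lie above 0, and Hmgcs1 1433446_at has a negative difference where the other Hmgcs1 probe sets have positive ones.

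Between the transgenes, none of the genes passed the test. In vehicle livers, all 4 Hmgcs1 probe sets read lower in LXRα than in GFP livers with no overlap, and Dhcr7 did too, 5 of 14 in all, against 13.5% of all tested probe sets, and 0 were higher without overlap, against 30.9%. The Hmgcs1 differences were -0.78 for 1433444_at (SE 0.39, 95% interval -1.71 to 0.14, adjusted p 0.963), -0.48 for 1433443_a_at, -0.63 for 1433445_x_at and -0.93 for 1433446_at. These probe sets belong to 1 gene and are not independent. The LXRα vehicle livers, low here, also enter the T0901317 difference of LXRα livers. Dhcr7 differed by -0.34 and Fdps by -1.43 (SE 1.58), and the other genes by between -0.24 and 0.04. None of 14 was called by limma (0.00631% of all), and 0 had an unadjusted p under 0.05 (5.15% of all). Beside this, all 12 macrophage markers were lower in LXRα vehicle than in GFP vehicle livers, with a median difference of -1.34 (0 called, 6 at an unadjusted p under 0.05), as were 7 of 8 stellate cell and matrix markers (median -0.86, 0 called, 4 at an unadjusted p under 0.05) and 7 of 8 endothelial markers (median -0.32, 0 called). The macrophage markers summed to 10419 to 11389 under T0901317 and 4003 to 10206 under vehicle with the LXRα transgene, and 9416 to 16289 under T0901317 and 14099 to 15430.0 under vehicle with GFP. The part of these markers in the Hmgcs1 and Dhcr7 differences was not tested.

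With T0901317 in both groups, the 8 genes differed between LXRα and GFP livers by between -0.70 and 0.33. None was called (0% of all) and 0 had an unadjusted p under 0.05 (2.24% of all). Srebf2 was the 1 probe set that did not overlap, and it was lower in LXRα T0901317 livers than in GFP T0901317 livers, against 8.73% of all. Averaged over treatments, the LXRα differences lay between -1.06 and 0.19 for the 8 genes, with 0 called (0.00631% of all) and 0 at an unadjusted p under 0.05 (2.66% of all).

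The enzymes also varied between livers of the same group, for several genes by as much as between treatments. In GFP T0901317 livers, replicate 2 lay above replicate 1 for all 7 enzymes, by 1.58 for Idi1, 1.26 for Fdps, 1.19 for Hmgcs1, 1.01 for Cyp51, 0.76 for Dhcr7, 0.32 for Sqle and 0.27 for Fdft1 on the log2 scale. Their median was 1.01, while the median over all tested probe sets was 0.06 and 57.1% of all lay above 0. In LXRα T0901317 livers, 3 of 7 were above 0, against 60.7% of all. Sqle was 1.34 lower in replicate 2 and Dhcr7 was 0.65 higher, so these genes of a shared path ran in opposite directions between the same arrays. The β-actin ratio of these arrays was 2.75 in replicate 1 and 36.3 in replicate 2. The part of RNA quality in this contrast was not tested. In LXRα vehicle livers, Fdps differed by -4.88, and the others by between -0.36 and 0.10. In GFP vehicle livers, 6 of 7 were above 0, against 38.9% of all, with Fdps at 2.29. Replicate numbers carry no order.

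**Figure D3:**
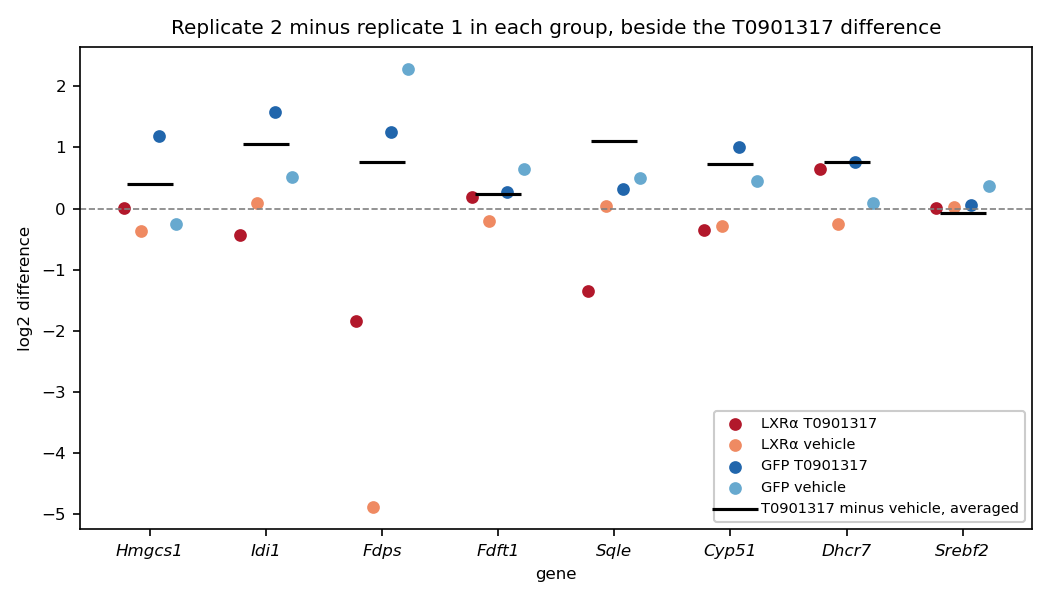
Log2 difference between replicate 2 and replicate 1 of each group (coloured points) for 8 genes, beside the averaged T0901317 difference (black bars). For Idi1, Cyp51 and Hmgcs1 the GFP T0901317 pair differs by more than the bar, for Sqle the LXRα T0901317 pair differs by 1.34 in size against the bar of 1.11, and for Fdps the points run between -4.88 and 2.29.

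As a description of how the enzymes moved over the 8 arrays, their centred log2 values were averaged without scaling. Fdps therefore had the largest weight, with a within-group standard deviation of 2.06 against 0.26 to 0.61 for the other enzymes. The mean was 0.54 and 0.09 under T0901317 and -0.14 and -0.97 under vehicle with the LXRα transgene, and -0.05 and 0.87 under T0901317 and -0.47 and 0.13 under vehicle with GFP. Treated and vehicle livers separated within the LXRα transgene and overlapped within GFP. The part of Fdps in this pattern, and in the choice of genes most like the mean below, was not tested. Each enzyme was then correlated with the mean of the other 6 over the 8 arrays, which share 1 table and its scaling. Pearson's r was 0.851 for Cyp51, 0.82 for Idi1, 0.716 for Dhcr7, 0.709 for Fdft1, 0.668 for Hmgcs1, 0.646 for Sqle and 0.511 for Fdps. For Srebf2 against the 7 enzymes it was 0.049. Of the 9290 genes outside the lists, those most like the enzyme mean were Gstm7 (r = 0.96), Gimap4 (r = 0.955), Snrnp27 (r = 0.954), Utp11 (r = 0.946), Ms4a6b (r = 0.944) and Mpeg1 (r = 0.938). Gstm7, a glutathione transferase, read 254 and 182 under T0901317 and 170.1 and 76.8 under vehicle with the LXRα transgene, and 169 and 249.6 under T0901317 and 137 and 182 under vehicle with GFP. Mpeg1, a macrophage gene, read 957 and 961 under T0901317 and 585 and 326 under vehicle with the LXRα transgene, and 829.5 and 1299 under T0901317 and 637 and 789 under vehicle with GFP.

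Further enzymes of the path were taken from a list. Of 14 further sterol enzymes, 11 had a tested probe set, and 7 read higher and 4 lower in T0901317 than in vehicle livers, with a median of 0.06 and none called by limma. Both lists were chosen with earlier results of these data known, and that median was not tested against the 0.74 of the 8 genes. Lbr, a lamin B receptor with sterol reductase activity, was 0.85 higher (unadjusted p 0.0391, adjusted p 0.2). Mvk, mevalonate kinase, differed by -0.50 (SE 0.16, unadjusted p 0.0175, adjusted p 0.154). Mvk read 38.2 and 36.7 under T0901317 and 52.0 and 61.0 under vehicle with the LXRα transgene, and 33.6 and 35.3 under T0901317 and 55.9 and 37.7 under vehicle with GFP. Its treated livers lay fully below vehicle livers within the LXRα transgene, against 28.5% of all tested probe sets, and within GFP, against 35.2%. Over both transgenes together, treated and vehicle livers overlapped. Pmvk differed by 0.73 and Nsdhl by 0.47, while Sc5d differed by -0.62, Tm7sf2 by -0.18 and Msmo1 by -0.17. Lss, Hsd17b7, Ebp and Mvd lay between 0.02 and 0.10. The other 3 are not analysed here.

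Of 9 further SREBP2 targets and regulators, 7 had a tested probe set, 5 read higher and 2 lower with T0901317, and the median was 0.38 with none called. Srebf1, the SREBP gene that LXR activates, had the largest difference, 1.22 (SE 0.35, unadjusted p 0.00979, adjusted p 0.128). It read 2273 and 4592 under T0901317 and 2157 and 1989 under vehicle with the LXRα transgene, and 3061 and 4037 under T0901317 and 1575 and 644 under vehicle with GFP. All 4 T0901317 livers lay above all 4 vehicle livers, as with Sqle and Dhcr7, while Srebf2 stayed flat. Rdh11 differed by 0.79, the sterol carrier gene Stard4 by 0.44, the escort Scap by 0.38 and the protease gene Mbtps1 by 0.04. Tmem97 differed by -0.04 and Insig2, whose product retains SCAP, by -0.31. In vehicle livers, LXRα livers differed from GFP livers by a median of 0.31 over the 11 enzymes (8 of 11 higher). Over the 7 targets and regulators the median was 0.41, with 4 higher and 3 lower, between -1.16 and 1.04. Again none of either list was called. The members had a median of -0.11 there, against 0.05 over all tested probe sets.

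**Figure D4:**
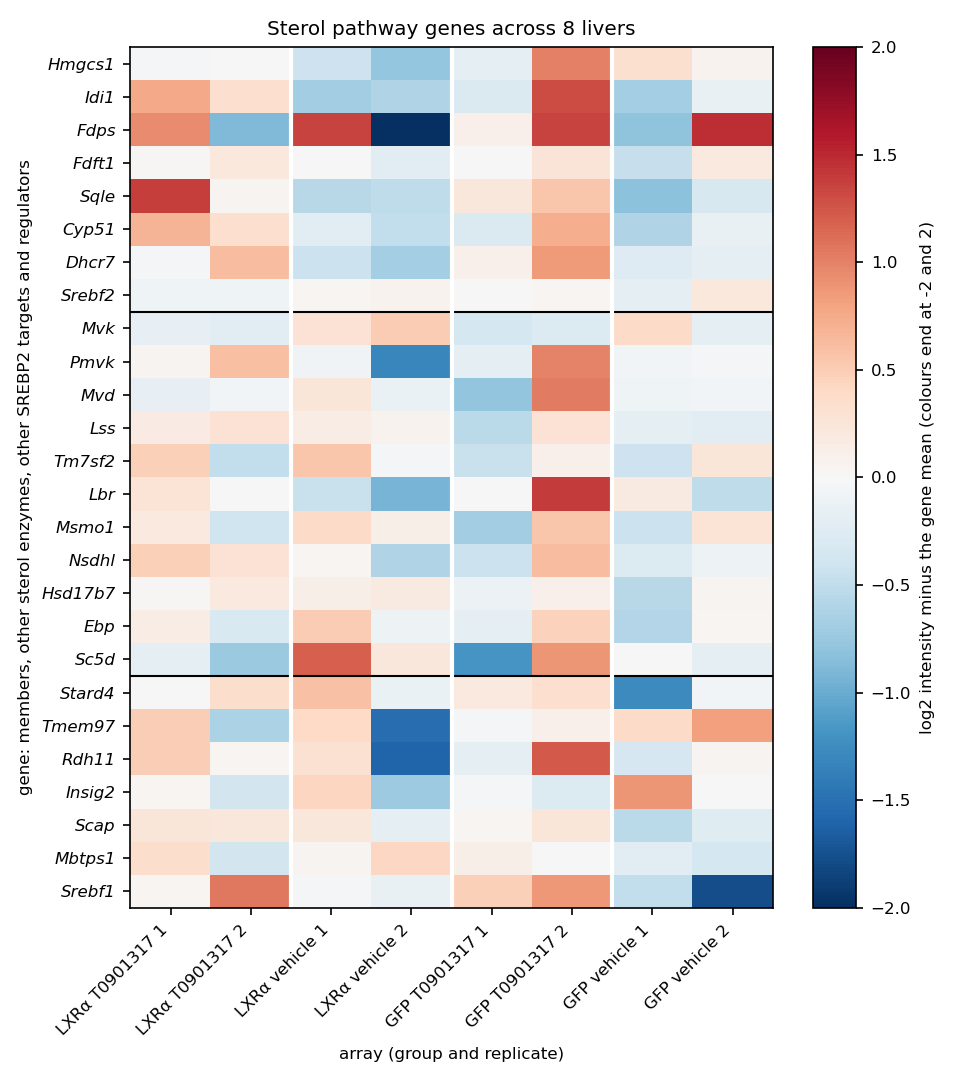
Log2 intensity minus the gene's mean over the 8 arrays for 8 genes (top block), 11 further sterol enzymes (middle) and 7 further SREBP2 targets and regulators (bottom), 1 column per liver. GFP T0901317 replicate 2 is high for most of the top block, LXRα vehicle replicate 2 is low for Fdps (beyond the end of the colour scale), and Srebf2 is pale throughout.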

How the data were processed

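The authors deposited 1 linear intensity per probe set and array for 8 liver RNA samples hybridised to Affymetrix mouse arrays. How probes were summarised and arrays scaled is not given in the sources used here. Both the members and the gene lists were chosen with earlier results of these data known.

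The table held 22690 probe sets, with 64 controls left out. Of the others, 20380 had 1 symbol in the platform annotation, 691 several and 1555 none. Of those with 1 symbol, 20351 had a gene identifier found in RefSeq and took the RefSeq symbol, changed or not. Values under 7.50 (percentile 20) were set to it before the log2 step, and the 15838 probe sets with a mean above percentile 30 (log2 3.36, an intensity of 10.3) were tested. limma 3.58.1 in R 4.3.3 fitted 4 group means to all 8 arrays (4 residual and 2.93 prior degrees of freedom, intensity trend). Contrasts were 4 simple differences, both averages and the interaction, tested two-sided and adjusted by Benjamini-Hochberg over all tested probe sets. The number of arrays limits the precision.

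For a gene with several probe sets, the brightest tested one with 1 symbol stood for it, excluding x_at ones where another existed. Named were every member probe set, the listed sterol genes, and the 6 genes outside the lists with the highest r with the mean of the 7 enzymes. Alternatives were other floors, offsets, filters and scalings, the compared groups alone, a replicate block, the β-actin ratio as a covariate, leaving out the arrays of high ratio and leaving out each array.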

Additional observations from a re-analysis of the deposited data

How the results depend on the processing

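None of the 14 probe sets (19 without a filter) was called in any of the 7 comparisons under the 21 alternatives, each where it could be run, among them a threshold of 0.10. Over all tested probe sets the averaged T0901317 comparison called 90, against 32 after quantile normalization, 15 without a filter, 17 with the replicate block, 4 with the β-actin covariate, 738 at the threshold of 0.10, and between 0 (without LXRα vehicle replicate 2) and 1506 (without LXRα T0901317 replicate 1) with 1 array left out. The smallest adjusted p was 0.0552, for Sqle averaged over both transgenes without LXRα T0901317 replicate 1 (difference 0.77). Of 616 single-gene values, 594 kept their direction and side of the threshold. Counts at an unadjusted p under 0.05 moved more. In the averaged T0901317 comparison the count of higher probe sets was 5, against 3 after quantile normalization, 1 with the β-actin covariate and 2 to 8 with 1 array left out. It was 8 without GFP T0901317 replicate 1, 2 without GFP T0901317 replicate 2 or GFP vehicle replicate 1, and 3 without LXRα T0901317 replicate 1 or LXRα vehicle replicate 2. In LXRα livers it was 4, against 1 after quantile normalization, 1 without a filter and 1 with the covariate, and 0 to 5 with 1 array left out: 0 without LXRα vehicle replicate 2, 1 without any other LXRα array and 2 without either GFP vehicle array. The median averaged T0901317 difference of the 8 genes lay between 0.62 and 0.82 under the other settings and between 0.46 and 0.97 with 1 array left out. Median centring turned Srebf2 in the averaged T0901317 comparison to 0.00877, and Fdft1 and Cyp51 in LXRα against GFP vehicle livers to -0.00639 and -0.0118. Srebf2 in GFP livers was -0.00135 with an offset and -0.00113 with the covariate. With 1 array left out, the averaged T0901317 difference ran from -0.46 to 1.98 for Fdps, from -0.17 to 0.0236 for Srebf2, from 0.66 to 1.45 for Idi1 and from 0.48 to 0.99 for Cyp51. In LXRα livers it ran from -1.32 to 3.56 for Fdps, 0.58 to 1.92 for Sqle and 0.52 to 1.18 for Dhcr7. In GFP livers it ran from -0.75 to 1.54 for Fdps, -0.38 to 0.82 for Hmgcs1, -0.064 to 0.58 for Fdft1, -0.19 to 0.19 for Srebf2, 0.13 to 1.71 for Idi1, 0.0908 to 1.11 for Cyp51 and 0.31 to 1.07 for Dhcr7. In LXRα against GFP vehicle livers it ran from -3.87 to 1.01 for Fdps, -0.21 to 0.29 for Sqle, -0.50 to 0.0265 for Idi1, -0.29 to 0.35 for Fdft1, -0.20 to 0.25 for Cyp51 and -0.15 to 0.23 for Srebf2. The causes were not tested. The differences between replicates of a group correlated with those of another group at r between -0.138 and 0.247, highest between both T0901317 groups. With 1 difference per group, this cannot decide whether the numbers pair the livers. The fit with the replicate number as a block called 0 of the 14 member probe sets in every comparison. The averaged and interaction comparisons have no version with the compared groups alone. Leaving out the arrays of high ratio removes both GFP T0901317 livers, so it was run for LXRα T0901317 against LXRα vehicle and for LXRα against GFP vehicle livers alone. The 5 dimmest probe sets lay near the floor and were not tested.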

Other observations

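The pattern of Fdps over the livers resembled that of other genes, chosen here by their correlation with it after their values were seen. Over the 8 arrays its log2 values correlated with Zw10 (r = 0.95), Folr2 (r = 0.949) and Npc2 (r = 0.935). The size of the spread was not shared by all: Zw10 read between 55.4 and 88.1, against 48.0 to 1548 for Fdps. Folr2, a folate receptor of macrophages, read 148 and 121 under T0901317 and 196 and 17.6 under vehicle with the LXRα transgene, and 114 and 203 under T0901317 and 112 and 312 under vehicle with GFP. Npc2, a lysosomal cholesterol carrier, read 940.2 and 659 under T0901317 and 742 and 314 under vehicle with the LXRα transgene, and 647 and 809.5 under T0901317 and 657 and 985 under vehicle with GFP. In each group the liver that was higher for Fdps was also the higher one for Folr2 and for Npc2. Such a likeness follows from picking the genes by r.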
